A study of Mus musculus with 5 samples.

Results

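The proteasome genes described here are the 48 genes of 13004 in the deposited table whose symbols run from Psma to Psmg followed by a number. They were measured by RNA sequencing in natural killer (NK) cells sorted from mouse spleen, lymphocytes of the innate immune system that kill virus-infected and tumour cells. The 48 genes comprise 14 of the core particle, 17 of the regulatory cap, 5 of the immunoproteasome (Psmb8, Psmb9, Psmb10, Psme1 and Psme2), 3 other activators or inhibitors, 7 assembly chaperones, the retrogene copy Psme2b, and Psmc3ip, which shares the symbol stem but encodes a DNA recombination factor and no proteasome subunit. The comparison asked how transcripts of splenic NK cells differ when Myc is deleted. All 48 passed the filter on low values and were tested, and none was called as differing between MycKO and control cells.

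The MycKO NK cells (replicates 5 and 6, n = 2) came from Mycdelta/delta/Ncr1Cre mice, in which Cre recombinase is driven by Ncr1, the gene of an activating NK cell receptor. The control cells (replicates 1, 2 and 3, n = 3) came from Mycf/f mice, whose Myc alleles are flanked by loxP sites and whose stated genotype names no Cre, so effects of Cre and of losing Myc cannot be told apart. All mice were C57BL/6 and 8 weeks of age, and the cells had been sorted live as negative for CD3 and positive for NK1.1 and DX5. It is not stated that every library had its own donor mouse, and p-values therefore reflect only the variation among these 5 libraries, part of which may be technical.

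The proteasome is the protease that degrades ubiquitin-tagged proteins in the cytosol and nucleus. Its barrel-shaped core is built of outer alpha rings, which gate the entry, and inner beta rings, 3 of whose subunits cut peptide bonds; a cap of ATPases and lid subunits recognises, de-ubiquitinates and unfolds the substrate. In lymphocytes and in cells exposed to interferon-gamma, the catalytic subunits Psmb8, Psmb9 and Psmb10 take the places of Psmb5, Psmb6 and Psmb7, and the ring formed by Psme1 and Psme2 can replace the cap, which favours peptides that fit class I molecules. MYC is a transcription factor that binds, with its partner MAX, the sequence CACGTG.

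That 6-base sequence was searched in the 250 bases before the transcription start that RefSeq gives on GRCm38.p6, since it is the one promoter feature named for the factor that was deleted. Of the 48 genes, 41 had such a promoter, with 44 promoters in all. CACGTG, which reads alike on both strands, was found in 4 of the 44 promoters (9.09%), against 6.02% of 32851 promoters of all genes. The 4 are those of Psmd9 (chr5:123227940-123228189, plus strand), Psmb10 (chr8:105938393-105938642, minus strand), Psma4 (chr9:54950609-54950858, plus strand) and Psme3 (chr11:101315963-101316212, plus strand). They are printed 5′ to 3′ on the strand of the gene, with the last base next to the start site and CACGTG in capitals.
Psmd9: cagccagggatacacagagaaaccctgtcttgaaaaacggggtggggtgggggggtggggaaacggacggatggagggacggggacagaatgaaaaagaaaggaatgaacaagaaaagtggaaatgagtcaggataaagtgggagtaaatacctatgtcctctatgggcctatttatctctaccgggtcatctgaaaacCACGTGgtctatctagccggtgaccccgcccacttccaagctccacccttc
Psmb10: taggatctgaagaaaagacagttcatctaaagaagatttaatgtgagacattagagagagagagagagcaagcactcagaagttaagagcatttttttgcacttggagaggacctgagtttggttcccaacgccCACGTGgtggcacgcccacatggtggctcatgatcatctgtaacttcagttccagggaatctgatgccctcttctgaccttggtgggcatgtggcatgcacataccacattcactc
Psma4: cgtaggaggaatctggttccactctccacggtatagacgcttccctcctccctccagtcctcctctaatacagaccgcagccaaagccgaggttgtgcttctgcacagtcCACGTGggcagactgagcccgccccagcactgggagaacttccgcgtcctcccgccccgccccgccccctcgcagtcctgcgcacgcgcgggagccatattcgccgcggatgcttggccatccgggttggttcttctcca
Psme3: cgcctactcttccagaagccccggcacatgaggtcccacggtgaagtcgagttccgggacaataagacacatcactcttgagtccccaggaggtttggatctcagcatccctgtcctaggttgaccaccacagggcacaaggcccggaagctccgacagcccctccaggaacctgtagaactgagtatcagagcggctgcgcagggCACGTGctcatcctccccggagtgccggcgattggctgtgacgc
In these windows 45 bases lie between the end of CACGTG and the start in Psmd9, 110 in Psmb10, 134 in Psma4 and 38 in Psme3. A match describes letters in a window and does not show that a factor is bound there.

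Psmb9 and Tap1, the gene of a peptide transporter subunit, start back to back. The RefSeq starts lie at chr17:34187330 for Psmb9 and chr17:34187556 for Tap1, with 225 bases between them (chr17:34187331-34187555). In GENCODE vM21 the Psmb9 gene reaches 34187764, past the Tap1 start at 34187553, so the interval holds only for the RefSeq starts. This interval is shown because 1 stretch of DNA flanks the starts of both genes, whose values are set side by side further on; it is printed on the minus strand, so that it reads towards Psmb9, and holds no CACGTG.
Psmb9 to Tap1 interval: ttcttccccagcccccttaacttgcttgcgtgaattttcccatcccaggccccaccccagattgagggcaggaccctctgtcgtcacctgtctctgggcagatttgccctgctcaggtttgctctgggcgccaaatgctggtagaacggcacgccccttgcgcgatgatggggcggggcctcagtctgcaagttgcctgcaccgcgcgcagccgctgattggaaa
Other searched motifs were the interferon-response core, GAAA followed after any 2 bases by GAAA, in 6.82% of the 44 promoters against 2.98% of all, and TTCNNNGAA, the STAT core, in 4.55% against 7.02%. TGANNNNGC, the antioxidant response core read by NRF1 and NRF2, was in 38.6% against 35.2%. Both strands were searched. The interferon-response core stood in the promoters of Psmb3, Psmd4 and Psmd9, and TTCNNNGAA in those of Psmb8 and Psmg1.

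Values are RPKM, reads divided by transcript length and by library total, so levels can be compared between genes. Differences are MycKO minus control on the log2(RPKM + 1) scale. They come from limma fitted to the 11190 genes that reached 1 RPKM in 2 or more libraries, and a gene was called at a Benjamini-Hochberg adjusted p under 0.05 over all of them. Reads in the listed genes came to 5451728 and 13337084 in MycKO 5 and 6, and ranged from 14290690 to 17610826 in the controls, so MycKO 5 carries the most counting error. The deleted gene, Myc, stood at 12.5 and 8.70 RPKM in MycKO 5 and 6, against 12.98, 22.97 and 21.24 RPKM in controls 1, 2 and 3 (log2 difference -0.77, SE 0.28, adjusted p = 0.297). The MycKO values of Myc lay below all controls, but the MycKO libraries still held Myc reads and the difference was not called.

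NK cell markers were high in every library, with a summed level of 8828 and 10448 RPKM in MycKO cells against 11621 to 13355 RPKM in controls over 10 genes. None of the 10 was called by limma. By limma-voom 3 were called (Tbx21, Prf1 and Gzma), all lower in MycKO cells, beside 2.09% of all genes. Of the 10 estimates 8 were below 0, and in 6 genes both MycKO values lay below all controls, beside 10.4% of all genes. Gzma alone held 4699 and 5620 RPKM of the MycKO sums. Summed over each list, markers of other cells stood higher in MycKO libraries. The 12 macrophage, monocyte and neutrophil markers summed to 1896 and 1301 RPKM in MycKO cells against 232 to 428 RPKM in controls. Of 11 tested, 9 were called higher. Lyz2 held 734 and 210 RPKM of the MycKO sums, and its values overlapped between groups. Mpo, which was not tested, had 19 and 17 reads in MycKO 5 and 6 and was at 0 in all controls. The 7 listed T cell markers summed to 120 and 176 RPKM against 14.6 to 33.0 RPKM (3 of 6 tested called). The 6 listed B and plasma cell markers summed to 332 and 670 RPKM against 80.7 to 137 RPKM (1 called), of which Jchain alone held 232 and 580 RPKM in MycKO cells. The 4 listed red cell markers summed to 203 and 92.9 RPKM against 3.37 to 4.72 RPKM (3 called), of which Car1 alone held 166 and 69.1 RPKM in MycKO cells. Markers of basophils and mast cells and of dendritic cells gave no call. Mcpt8 was at 0 in all controls, but Cpa3, Ms4a2, Itgax and Zbtb46 overlapped between groups. Ms4a2 in MycKO 6 (0.860 RPKM) lay below all controls (1.83 to 2.43 RPKM). The proteasome is made in every cell type, and the part of these cells in the proteasome values was not tested. In such sorted bulk samples, fewer cells of a type and less RNA per cell cannot be told apart.

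Proteasome transcripts were abundant in NK cells of both groups. The 48 genes took 0.491% and 0.471% of all reads in MycKO 5 and 6, against 0.461%, 0.460% and 0.438% in controls 1, 2 and 3. Summed over the genes, the level was 3678 and 3528 RPKM in MycKO cells, against 3442, 3430 and 3268 RPKM in controls. Both MycKO sums lay above all 3 control sums, by less than the range of the controls in the case of MycKO 6. With median-of-ratios or upper-quartile scaling the groups overlapped, MycKO 6 (3441 and 3475 RPKM) lying below control 1 (3521 and 3483 RPKM).

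By the mean over the 5 libraries, the immunoproteasome genes Psme1 (268.1 RPKM) and Psmb8 (220.6 RPKM) were the most abundant of all 48. The core genes Psmb1 (167.1 RPKM), Psma2 (165.7 RPKM), Psmb3 (159.5 RPKM) and Psmb4 (128.6 RPKM) came next. Psme2 with 128.5 RPKM and Psmb9 with 128.0 RPKM were level with Psmb4, and Psmb10 was lower, at 98.8 RPKM. The median level of the 5 was 128.5 RPKM, against 97.5 RPKM for the 14 core genes, 60.4 RPKM for the 17 cap genes and 12.3 RPKM for all genes tested.

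**Figure D1:**
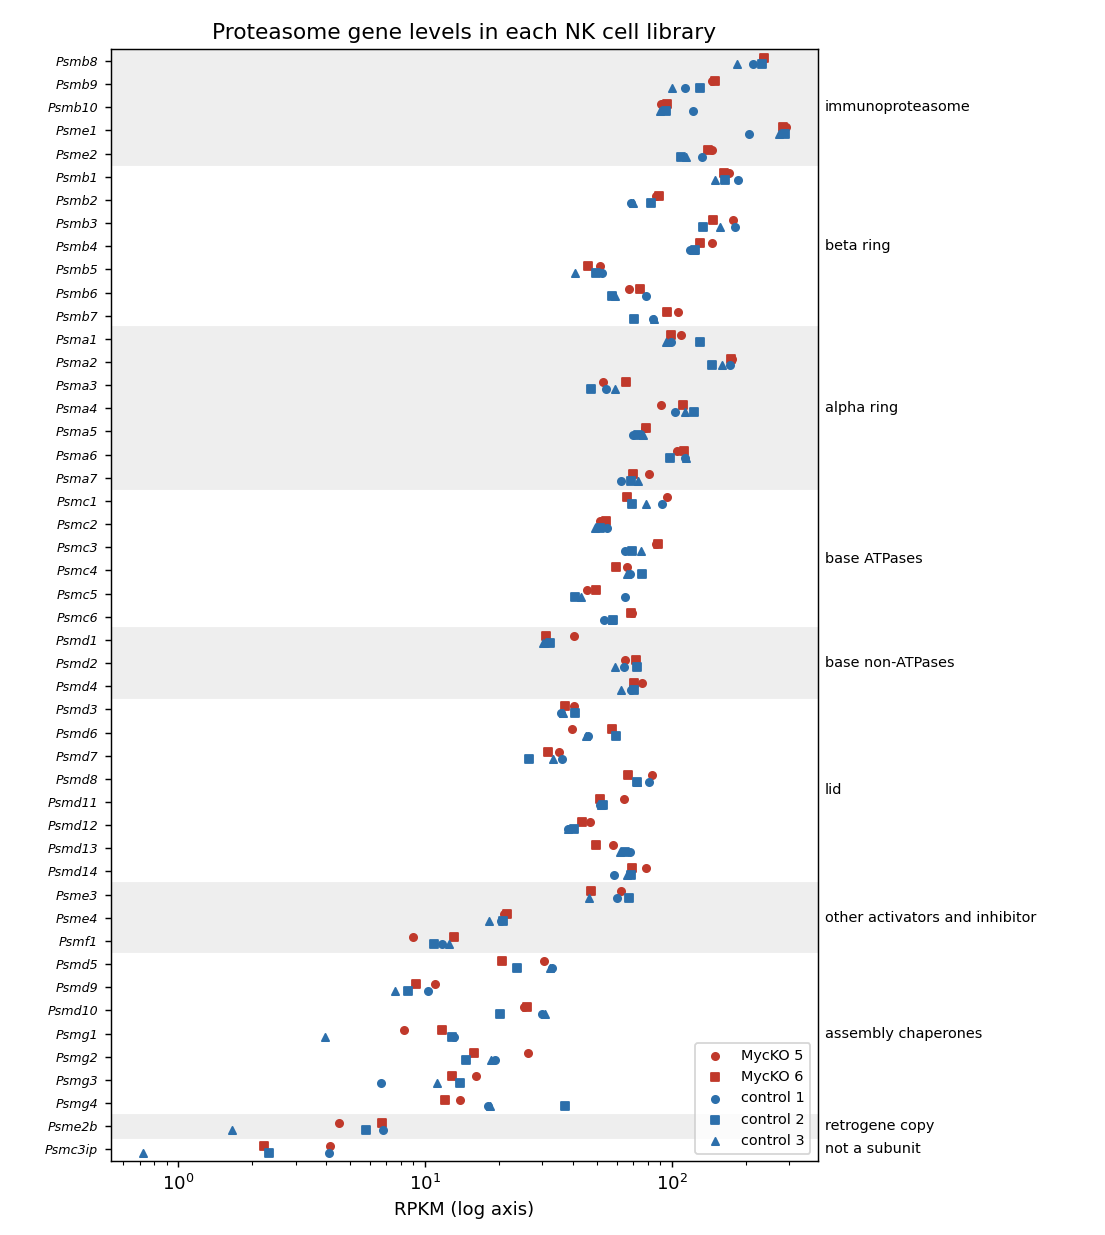
RPKM of each of the 48 genes (rows, grouped by role) in each library on a log axis, with MycKO 5 and 6 in red and controls 1, 2 and 3 in blue. Psme1 and Psmb8 lie furthest right, assembly chaperones, Psmf1, Psme2b and Psmc3ip lie at the left, and for most genes red and blue points lie close together.

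Within the alpha ring, whose proteins are incorporated in equal numbers, and within the beta ring, transcript levels were unequal. The alpha ring genes spanned 55.7 RPKM (Psma3) to 165.7 RPKM (Psma2), a 2.97-fold range of means. The beta ring genes spanned 47.8 RPKM (Psmb5) to 167.1 RPKM (Psmb1), a 3.49-fold range. They include Psmb5, Psmb6 and Psmb7, whose places Psmb8, Psmb9 and Psmb10 can take, so equal numbers need not hold for them. The base ATPases were the most even, from 48.6 RPKM (Psmc5) to 80.3 RPKM (Psmc1), and the lid ran from 32.4 RPKM (Psmd7) to 74.99 RPKM (Psmd8). The chaperones, which help assemble the particle and do not stay in it, were lower, from 9.35 RPKM (Psmd9) to 27.9 RPKM (Psmd5). Between the 3 controls the coefficient of variation had a median of 10.6% over the 48 genes, from 1.38% for Psmd11 to 70.9% for Psmc3ip.

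No proteasome gene was called in MycKO cells against controls by limma, where 1.34% of all genes tested were called. Limma-voom on the reads behind the RPKM values called 0 of 48 as well, against 2.09% of all genes, and the authors' deposited table put 0 of 48 under an adjusted p of 0.05, against 3.4% of its genes. The smallest adjusted p among the 48 was 0.283 in limma, for Psmc3, and 0.538 in the authors' deposited table, for Psmd13. Without adjustment, 4 genes had p under 0.05 and an estimate above 0 (Psmb7, Psmb9, Psmc3 and Psmc6), beside 9.83% of all genes, and 1 had an estimate below 0 (Psmg4), beside 3.35% of all genes. By limma-voom 2 of the 48 had an unadjusted p under 0.05, beside 1399 of the 11190 genes tested.

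What the intervals leave room for was small for most of the particle. The 95% intervals of all 36 core, cap and immunoproteasome genes lay between -0.56 and 0.67. Of the 48 genes, 43 had an interval inside -1 to 1, the exceptions being Psmc3ip, Psme2b, Psmg1, Psmg3 and Psmg4, which are low or vary widely between controls. The estimates ran from -0.79 (Psmg4) to 0.47 (Psmg3).

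**Figure D2:**
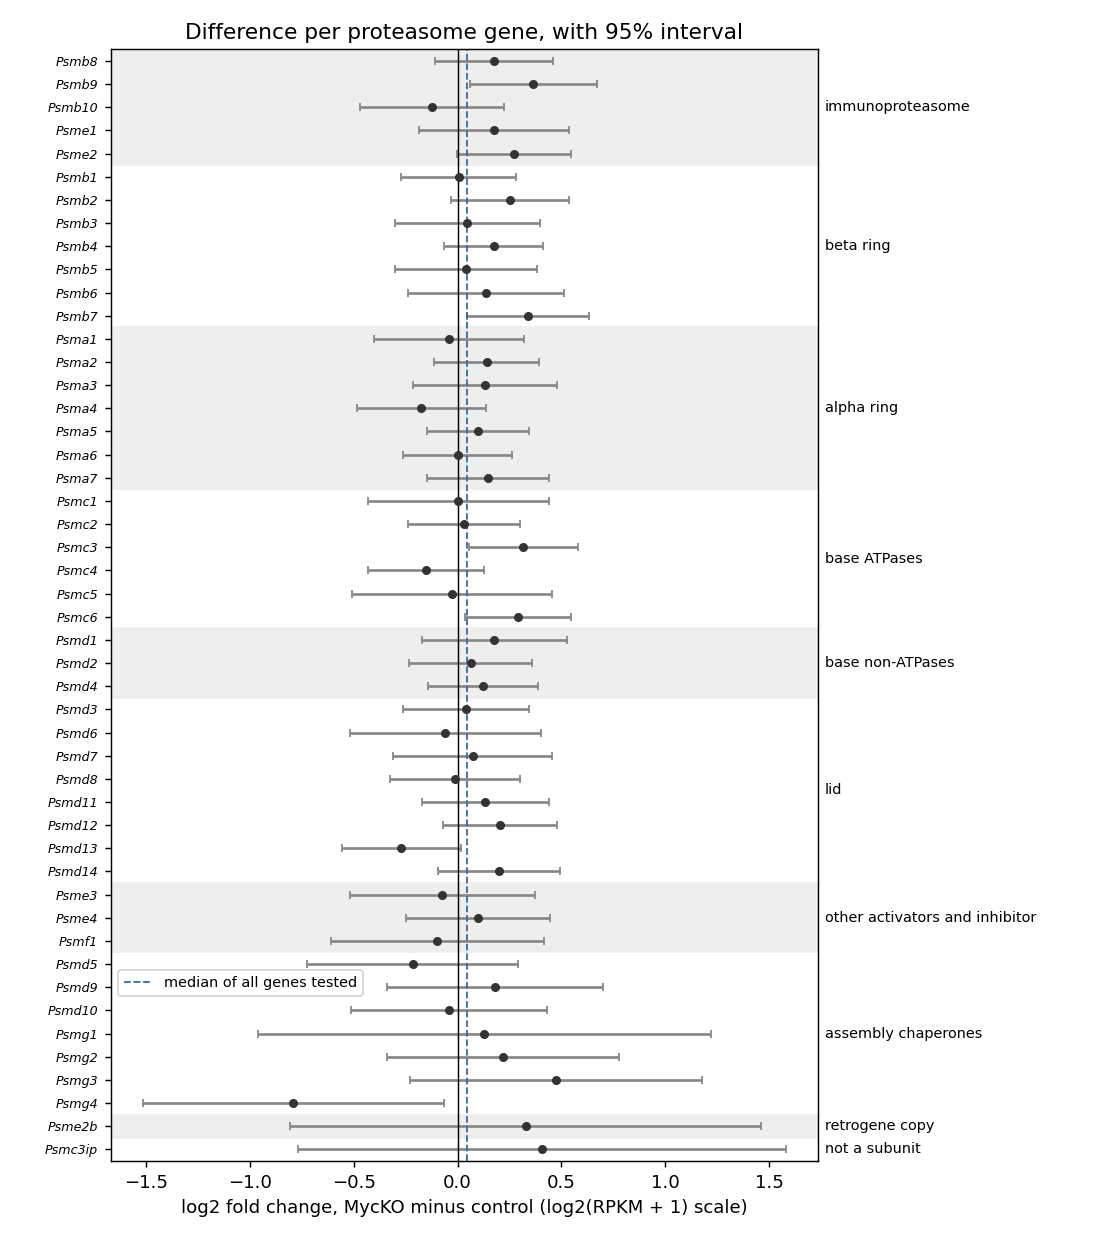
Estimated log2 difference, MycKO minus control, for each of the 48 genes (points) with its 95% interval (bars), grouped by role; the solid line marks 0 and the dashed line the median of all genes tested, 0.05. The intervals of the core, cap and immunoproteasome genes stay between -0.56 and 0.67, and the widest belong to low chaperones, Psme2b and Psmc3ip.

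The estimates leaned above 0. Of the 48 genes, 34 had an estimate above 0 and 14 below, beside 57.1% above 0 among all genes tested. The median of the 48 was 0.11, with quartiles at -0.015 and 0.19, against a median of 0.05 and quartiles at -0.13 and 0.30 for all genes. With median-of-ratios scaling 28 estimates were above 0 and 20 below (58.3%, beside 49.8% of all genes), and with upper-quartile scaling 29 and 19 (60.4%, beside 51.1%), so both shares moved together. Without control 3 the counts were 28 and 20 (58.3%, beside 57.5% of all genes). The authors' deposited table put 27 higher and 21 lower in MycKO cells.

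**Figure D3:**
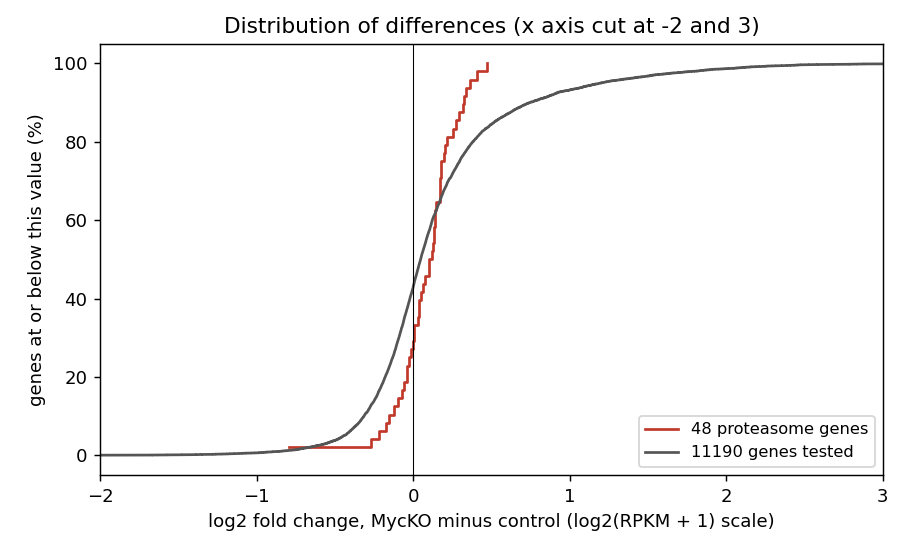
Cumulative share of genes (percent) against the log2 difference, MycKO minus control, for the 48 proteasome genes (red) and the 11190 genes tested (grey), with the x axis cut at -2 and 3. The red curve (median 0.11) is steeper than the grey one (median 0.05) and reaches its top at 0.47.

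In 13 of the 48 genes both MycKO values lay above all 3 controls, beside 18.8% of all genes tested, and in 3 they lay below, beside 10.4% of all genes. The 13 were Psma2, Psma5, Psmb2, Psmb4, Psmb7, Psmb8, Psmb9, Psmc3, Psmc6, Psmd12, Psmd14, Psme2 and Psme4, and the 3 were Psmc4, Psmd13 and Psmg4. With median-of-ratios or upper-quartile scaling, 8 lay above and 3 below under each, beside 15.9% and 13.8% of all genes with the first scaling and 16.3% and 13.2% with the second.

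Of the 5 immunoproteasome genes, 4 had an estimate above 0 and Psmb10 one below, with a median of 0.17 and none called. Averaged over the 5 genes, the level on the log2(RPKM + 1) scale was 7.40 in both MycKO libraries, against 7.26, 7.29 and 7.13 in controls 1, 2 and 3. The difference was 0.17 with a pooled SD between libraries of 0.069, and differences of class means were not tested. The MycKO means stayed above all controls with both other scalings (differences 0.12 and 0.13). The core genes averaged 6.64 and 6.63 in MycKO cells, against 6.58, 6.52 and 6.53 in controls, a difference of 0.093 with a pooled SD of 0.028. This gap depended on scaling: with median-of-ratios scaling the core difference was 0.040 and the groups overlapped, while with upper-quartile scaling it was 0.049 and they did not. The cap genes averaged 5.90 and 5.80 in MycKO cells, against 5.81, 5.79 and 5.74 in controls, and the groups overlapped.

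**Figure D4:**
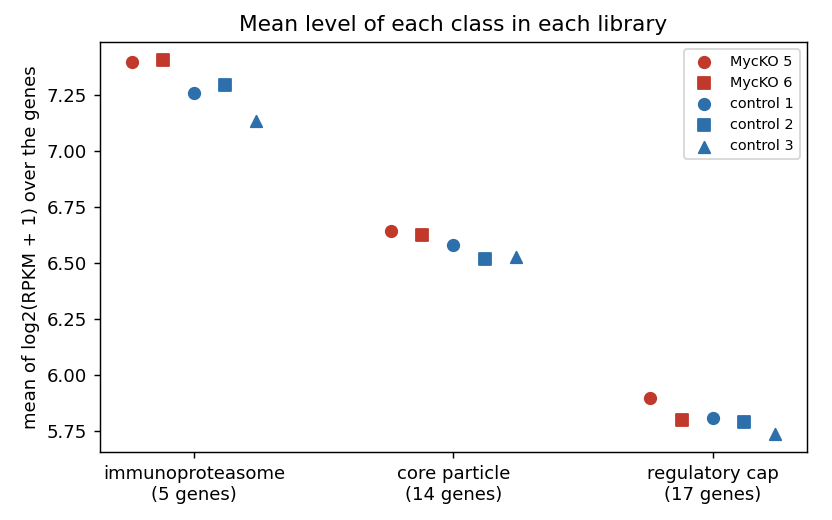
Mean of log2(RPKM + 1) over the genes of each class, 1 point per library, MycKO 5 and 6 in red and controls 1, 2 and 3 in blue. The classes keep their order in every library, the MycKO means of the immunoproteasome (7.40 and 7.40) lie above the controls (7.13 to 7.29), and those of the cap overlap with the controls.

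Psmb8 (Entrez 16913, chr17:34197721-34201454 on mm10, plus strand) encodes the inducible chymotrypsin-like subunit. It stood at 235 and 237 RPKM in MycKO 5 and 6, against 214, 232 and 184 RPKM in controls 1, 2 and 3, with means of 236.2 ± 1.78 (SD, n = 2) and 210.3 ± 24.3 RPKM (SD, n = 3). The MycKO values lay just above the highest control, by less than the range of the controls. The log2 difference was 0.17 (SE 0.12, 95% interval -0.11 to 0.46, adjusted p = 0.657), and without control 3 it was 0.082.

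Psmb9 (Entrez 16912, chr17:34181987-34187764, minus strand), the inducible subunit that takes the place of Psmb6, had the largest estimate of the 5. It stood at 146 and 149 RPKM in MycKO cells, against 113, 131 and 101 RPKM in controls, with means of 147.6 ± 2.58 and 115 ± 15.2 RPKM. Both MycKO values were above all controls, and its log2 difference of 0.37 (SE 0.13, 95% interval 0.062 to 0.67) had an adjusted p of 0.284. Leaving out control 2 gave the smallest adjusted p of any of the 48 genes under any setting tried, 0.113 for Psmb9. Tap1, across the interval between the RefSeq starts, stood at 83.6 and 83.7 RPKM in MycKO cells, against 64.7, 81.0 and 75.02 RPKM in controls (log2 difference 0.19, adjusted p = 0.637). In both genes the MycKO values lay above the controls, and neither was called. Exons of Psmb9 and Tap1 overlap on opposite strands, and the labels do not state whether reads were counted by strand.

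Psmb10 (Entrez 19171, chr8:105935735-105938444, minus strand), the inducible trypsin-like subunit, was the exception in sign. It stood at 91.1 and 95.5 RPKM in MycKO cells, against 122, 95.3 and 89.7 RPKM in controls. The MycKO values lay within the range of the controls, of which control 1 was the highest. Its log2 difference was -0.12 (SE 0.15, 95% interval -0.47 to 0.23, adjusted p = 0.839), and without control 1 it was 0.012.

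Psme1 (Entrez 19186, chr14:55578123-55581529, plus strand) and Psme2 (Entrez 19188, chr14:55587441-55591113, minus strand) encode the subunits of the interferon-inducible activator ring. Psme1 stood at 290 and 282 RPKM in MycKO cells, against 206, 289 and 274 RPKM in controls (log2 difference 0.17, 95% interval -0.19 to 0.53, adjusted p = 0.741). The groups of Psme1 overlapped, with control 1 apart below the other 4 libraries, and without control 1 the estimate was 0.025. Psme2 stood at 146 and 141 RPKM in MycKO cells, against 132, 109 and 115 RPKM in controls (0.27, 95% interval -0.00041 to 0.55, adjusted p = 0.380). Psme2 did not overlap between groups. The ratio of Psme1 to Psme2 was 1.99 and 2.01 in MycKO cells, against 1.55, 2.65 and 2.38 in controls, so the MycKO ratios lay inside the control range. Psme2b, a retrogene copy of Psme2 with which reads may have been shared, was low, at 4.50 and 6.72 RPKM in MycKO cells against 6.77, 5.79 and 1.65 RPKM in controls.

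The 3 constitutive catalytic subunits are those that the inducible ones displace. Psmb5 (Entrez 19173, chr14:54614119-54618022, minus strand) stood at 51.1 and 45.9 RPKM in MycKO cells, against 52.3, 49.3 and 40.5 RPKM in controls (log2 difference 0.040, 95% interval -0.30 to 0.38, adjusted p = 0.958). Its sign turned with the scaling (-0.012 with median-of-ratios), and the groups overlapped. Psmb6 (Entrez 19175, chr11:70525367-70527858, plus strand) stood at 67.0 and 74.7 RPKM in MycKO cells, against 78.5, 57.3 and 58.9 RPKM in controls (0.14, 95% interval -0.24 to 0.51, adjusted p = 0.825). These groups overlapped too, control 1 being the highest, and the estimate ran from 0.056 (without control 2) to 0.28 (without control 1). Psmb7 (Entrez 19177, chr2:38588036-38644087, minus strand) stood at 106 and 95.7 RPKM in MycKO cells, against 83.97, 70.7 and 84.97 RPKM in controls, with means of 101 ± 7.46 and 79.9 ± 7.96 RPKM. Both MycKO values of Psmb7 lay above all controls, with a log2 difference of 0.34 (SE 0.13, 95% interval 0.045 to 0.63, adjusted p = 0.308).

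The balance of inducible over constitutive subunits was taken as the ratio of RPKM values within a library, which no scaling can alter. Psmb8 exceeded Psmb5 by a ratio of 4.60 and 5.17 in MycKO cells, against 4.10, 4.71 and 4.55 in controls. Psmb9 exceeded Psmb6 by 2.17 and 1.9996 in MycKO cells, against 1.44, 2.28 and 1.71 in controls. Psmb10 over Psmb7 was 0.857 and 0.998 in MycKO cells, against 1.46, 1.35 and 1.06 in controls. The first and second ratios overlapped between the groups, and the third was lower in both MycKO libraries than in every control. Read as a share of each pair, Psmb8 made up 82.1% and 83.8% in MycKO cells against 80.4% to 82.5% in controls, Psmb9 68.5% and 66.7% against 59.1% to 69.6%, and Psmb10 46.1% and 49.9% against 51.4% to 59.3%.

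The log2 difference of the Psmb8 to Psmb5 ratio was 0.13 (95% t interval -0.19 to 0.45, two-sided exact permutation p = 0.4). That of Psmb9 to Psmb6 was 0.23 (-0.58 to 1.04, exact permutation p = 0.6), and that of Psmb10 to Psmb7 was -0.46 (-1.09 to 0.17, exact permutation p = 0.2). After Benjamini-Hochberg adjustment over the 3 pairs, each exact permutation p was 0.6. With 2 libraries against 3 the smallest p possible is 0.2, so this test could not reach 0.05.

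**Figure D5:**
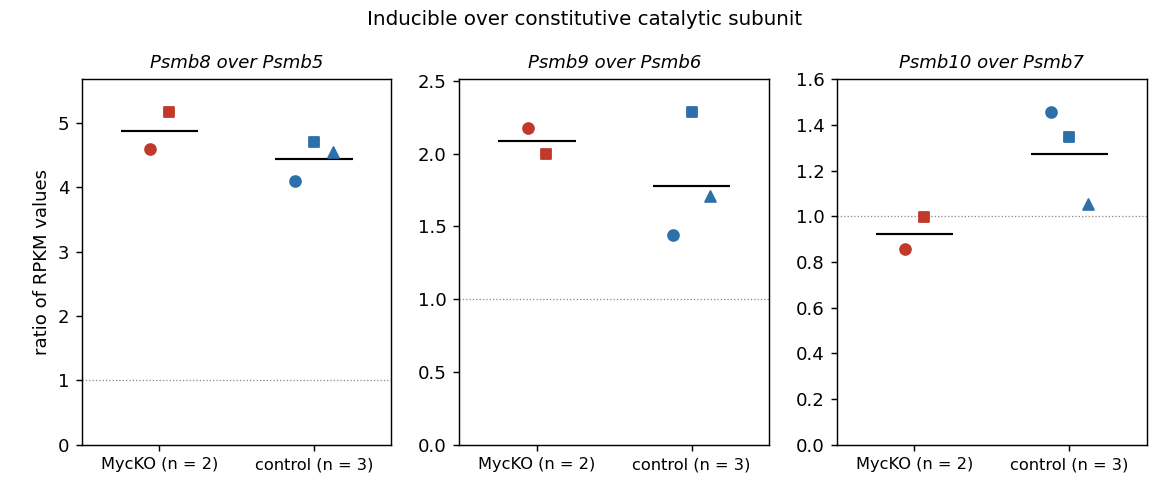
Ratio of the RPKM of each inducible catalytic subunit to that of the constitutive subunit it replaces, 1 point per library, MycKO left and control right; horizontal bars are geometric means and the dotted line marks a ratio of 1. The Psmb8 and Psmb9 ratios overlap between groups, and the Psmb10 ratios are 0.857 and 0.998 in MycKO cells against 1.06 to 1.46 in controls.

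In the core, 11 of the 14 genes had an estimate above 0 and 3 below, with a median of 0.12, and none was called. All 7 beta ring genes were above 0 (median 0.14), as were 4 of the 7 alpha ring genes (median 0.10), beside 57.1% of all genes tested. Psmb1 (0.006), Psmb3 (0.047) and Psmb5 (0.040) lay near 0. In the authors' deposited table they were below 0, at -0.061, -0.020 and -0.028. In the alpha ring, Psma4 (Entrez 26441) had the smallest p. It stood at 90.6 and 111 RPKM in MycKO cells, against 104, 124 and 113 RPKM in controls (log2 difference -0.17, SE 0.13, 95% interval -0.48 to 0.14, adjusted p = 0.690). The groups overlapped, MycKO 5 being the lowest of the 5 libraries, and the estimate was -0.030 without MycKO 5 and -0.32 without MycKO 6. Psma6, the nearest to 0 of all 48 genes, stood at 105 and 113 RPKM in MycKO cells, against 114, 99.0 and 114 RPKM in controls.

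In the cap, 12 of the 17 genes had an estimate above 0 and 5 below, with a median of 0.063. Psmc3 (Entrez 19182, chr2:91054009-91066369, plus strand), an ATPase of the base, had the smallest p of all 48. It stood at 86.3 and 88.3 RPKM in MycKO cells, against 65.0, 69.5 and 75.5 RPKM in controls, with means of 87.3 ± 1.42 and 70.0 ± 5.28 RPKM. Both MycKO values were above all controls, and the log2 difference was 0.32 (SE 0.11, 95% interval 0.054 to 0.58, adjusted p = 0.283). Psmc6, another base ATPase and chosen here after its values were seen, showed much the same, with 69.4 and 68.4 RPKM in MycKO cells against 53.3, 57.9 and 57.4 RPKM in controls (0.29, adjusted p = 0.315). The 6 ATPases form 1 ring, and their estimates differed in sign. Psmc4 had -0.15 and Psmc5 -0.025, with a median over the 6 of 0.018.

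Psmd1 (Entrez 70247), a scaffold of the base, stood at 40.2 and 31.1 RPKM in MycKO cells, against 31.4, 32.0 and 30.1 RPKM in controls (log2 difference 0.18, 95% interval -0.17 to 0.53, adjusted p = 0.722). MycKO 5 alone stood apart, and without it the estimate was -0.0039. In the lid, Psmd13 (Entrez 23997, chr7:140881968-140898643, plus strand) ran the other way from most of the family. It stood at 58.0 and 49.5 RPKM in MycKO cells, against 68.0, 64.9 and 61.8 RPKM in controls, with means of 53.8 ± 6.06 and 64.9 ± 3.12 RPKM. Both MycKO values were below all controls (log2 difference -0.27, SE 0.12, 95% interval -0.56 to 0.015, adjusted p = 0.407), and without MycKO 6 the estimate was -0.16. Psmd14, the lid subunit that removes ubiquitin chains, stood at 79.0 and 69.1 RPKM in MycKO cells, against 58.4, 68.3 and 66.3 RPKM in controls (0.20, adjusted p = 0.603).

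Among the other activators and the inhibitor, Psme4, a nuclear activator of the core, had the smallest p, with 21.1 and 21.5 RPKM in MycKO cells against 20.4, 20.7 and 18.3 RPKM in controls (log2 difference 0.10, 95% interval -0.25 to 0.45, adjusted p = 0.876). The MycKO values lay above the controls by a small margin, and without control 3 the estimate was 0.045. Psme3, a nuclear activator related to Psme1, had an estimate of -0.074, and Psmf1, an inhibitor of the core, one of -0.098.

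Of the 7 assembly chaperones, 4 had an estimate above 0 and 3 below. Psmg4 (Entrez 69666, chr13:34162964-34178173, plus strand), which helps build the alpha ring, had the largest estimate below 0 of the family. It stood at 13.9 and 12.04 RPKM in MycKO cells, against 18.0, 37.0 and 18.4 RPKM in controls. Both MycKO values were below all controls, and control 2 stood far above the other controls. The log2 difference was -0.79 (SE 0.31, 95% interval -1.52 to -0.065, adjusted p = 0.335), and without control 2 it was -0.46. Its reads numbered 42 in MycKO 5 and 361 in control 2. Psmg3, its partner, had 16.2 and 12.95 RPKM in MycKO cells against 6.65, 13.9 and 11.2 RPKM in controls (0.47, 95% interval -0.23 to 1.18, adjusted p = 0.612). Those values overlapped.

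The genes whose promoters hold CACGTG had estimates of both signs, and the 95% interval of each included 0, so no direction was settled for any of them. The estimates were 0.18 for Psmd9, -0.12 for Psmb10, -0.17 for Psma4 and -0.074 for Psme3, none of them called.

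The genes around the proteasome gave few calls. Of 20 listed symbols for proteasome partners, 17 were in the table and none was called, with a median of 0.082. Nfe2l2, a transcription factor that activates proteasome genes under oxidative stress, stood at 31.4 and 25.3 RPKM in MycKO cells, against 24.9, 19.7 and 20.9 RPKM in controls (log2 difference 0.36, adjusted p = 0.435). Uchl5, a deubiquitinase of the cap, stood at 19.0 and 20.5 RPKM in MycKO cells, against 23.2, 28.8 and 21.4 RPKM in controls (-0.29, adjusted p = 0.582). Neither gene overlapped between groups, Nfe2l2 being higher and Uchl5 lower in both MycKO libraries. None of the 6 genes of ubiquitin and its activation was called (median -0.0065), and the smallest p was that of Uba6, a ubiquitin-activating enzyme, at 0.31 (adjusted p = 0.691).

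The class I loading genes act downstream, where the peptides made by the proteasome are carried into the endoplasmic reticulum and loaded. None of the 9 was called, with 8 estimates above 0, 1 below (Erap1, -0.27) and a median of 0.22. In 7 of the 9 both MycKO values lay above all controls and in 1 below, beside the shares of 18.8% and 10.4% of all genes given above. Calr, a chaperone of class I heavy chains, stood at 296 and 263 RPKM in MycKO cells, against 244, 232 and 217 RPKM in controls (log2 difference 0.27, adjusted p = 0.335). Pdia3, which works with it, stood at 242 and 244 RPKM in MycKO cells, against 187, 221 and 202 RPKM in controls (0.26, adjusted p = 0.364).

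Of 11 genes of the interferon-gamma response, the pathway that induces Psmb8, Psmb9, Psmb10, Psme1 and Psme2, 1 was called. Ifngr2, a subunit of the interferon-gamma receptor, was higher in MycKO cells, at 13.8 and 9.85 RPKM against 2.05, 1.76 and 0.946 RPKM in controls (log2 difference 2.32, SE 0.33, adjusted p = 0.0263). Macrophage, monocyte and neutrophil markers were higher in the same libraries, as given above, and their part in this value was not tested. Jak1, a kinase of the receptor, stood at 331 and 403 RPKM in MycKO cells, against 456, 465 and 468 RPKM in controls (-0.34, adjusted p = 0.254). Irf1, a transcription factor that switches on the immunoproteasome genes, had an estimate of -0.077 (adjusted p = 0.868), and its values overlapped between groups. Irf1 and Erap1 were chosen after their values were seen.

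Some counts are uncertain because genes overlap. Of the 48 genes, 15 share exon sequence with another annotated gene in GENCODE vM21, 4 on the same strand and 12 on the opposite one. Psmb7 overlaps Nek6, Psmc3 overlaps Slc39a13, Psmd13 overlaps Sirt3 and Psme1 overlaps Emc9, all on the opposite strand. Psmb8 overlaps Gm20496, Psma4 overlaps AY074887 and Psmd1 overlaps Htr2b, likewise on the opposite strand. On the same strand, Psmb5 overlaps Mir686, Psmd1 overlaps Gm21972 and Psmg3 overlaps Gm26938. GENCODE also lists 4 pseudogenes of Psmb5, Psmb6 and Psmb7, with which reads of these genes may have been shared.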

How the data were processed

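RNA of splenic NK cells was sequenced from 2 MycKO and 3 control samples with a strand-specific kit, per the labels' protocols. TopHat and edgeR are named without a role, and mm10 as the build, per the submitters' processing notes; no version, annotation, counting tool or strand setting was found in the sources used here. The deposited table holds 13004 genes with the authors' RPKM per sample. Per the file headers it also holds mean normalized signal (all samples, MycKO, control), the ratio of the groups as a fold change, the log2 of that ratio, and a raw and an adjusted p-value from a test that is not stated. Sample columns were matched by the names in the labels.

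The 48 genes were found by symbol. They and all lists were chosen with earlier results of these data known. RPKM values were analysed as log2(RPKM + 1), which understates changes of low genes. The 11190 genes that reached 1 RPKM in 2 or more samples were fitted with limma 3.58.1 in R 4.3.3, with 2 groups, all 5 samples and a variance trend. Tests were two-sided, and adjusted p-values (Benjamini-Hochberg) ran over all genes tested, with a threshold of 0.05. Printed differences, SE, intervals and adjusted p-values of genes come from this fit, unless another setting, limma-voom or the deposited table is named. Differences of class means are plain differences of group means. Group means and RPKM values together gave the reads behind each value: 100% came out whole within 0.0001 of a read. Limma-voom was run on these reads, and they give the depths. All pairs of samples differed by more than counting noise (chi-square per degree of freedom at least 17.5). The procedure was tested on simulated data.

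Ratios of inducible to constitutive subunits were compared on the log2 scale with an exact permutation test over samples (scipy 1.17.1 in Python 3.11.15). The genes given in every library were, by rule, the 5 immunoproteasome genes, Psmb5, Psmb6 and Psmb7, any gene called, the gene with the smallest p of each role group, the 2 with the smallest p of each neighbouring pathway list (1 gene is not reported here), and Myc; any other gene was picked with its values in view. Gene coordinates come from GENCODE vM21 (mm10) and promoters from RefSeq (GRCm38.p6). Figures were drawn with matplotlib 3.10.9. Alternatives were no filter on low values, a minimum of 5 RPKM in 2 samples, a pseudocount of 0.1, median-of-ratios and upper-quartile scaling, no variance trend, limma-voom, an adjusted p under 0.1, the authors' deposited values, and leaving out each sample.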

Additional observations from a re-analysis of the deposited data

How the results depend on the processing

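No proteasome gene was called under any alternative run, including an adjusted p under 0.1. The count of all genes called, 150, was 80 with a pseudocount of 0.1, 234 with limma-voom, 324 at an adjusted p under 0.1 and 442 in the authors' deposited table, and 34 (without MycKO 5) to 217 (without control 2) with 1 library left out. The immunoproteasome median, 0.17, was 0.12 with median-of-ratios scaling, 0.13 with upper-quartile scaling and 0.11 in the authors' deposited table, and ran from 0.18 to 0.25 with 1 library left out. The core median, 0.12, was 0.063 with median-of-ratios scaling, 0.073 with upper-quartile scaling and 0.054 in the authors' deposited table, and ran from 0.074 (without MycKO 5) to 0.13 with 1 library left out. The cap median, 0.063, was 0.010 with median-of-ratios scaling, 0.020 with upper-quartile scaling and 0.0015 in the authors' deposited table, and ran from 0.019 (without control 3) to 0.15 (without MycKO 6). The causes were not tested. Some alternatives cannot move the estimate of a gene they keep: no filter, the 5 RPKM minimum, no variance trend and an adjusted p under 0.1. With these counted as kept, 189 of the named genes' values under alternatives kept their direction and 7 turned. Those were Psmb5 at -0.012 (median-of-ratios), -0.0027 (upper-quartile), -0.067 (without control 3), -0.035 (without MycKO 5) and -0.028 (the authors' deposited table), Psmb10 at 0.012 (without control 1) and Psmd1 at -0.0039 (without MycKO 5). With 1 library left out, Psmb5 ran from -0.067 to 0.12, Psmb10 from -0.21 to 0.012 and Psmd1 from -0.0039 to 0.36. With 1 library left out, the log2 ratios kept their sign, at 0.048 to 0.22 for Psmb8 to Psmb5, 0.078 to 0.41 for Psmb9 to Psmb6 and -0.60 to -0.35 for Psmb10 to Psmb7. No paired analysis was possible because the groups share no replicate number.

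With 2 MycKO libraries, intervals of low genes are wide, and MycKO 5 holds the fewest reads. Without a MycKO library, the lone one is assumed to vary like the controls. RPKM is relative, so a change in total RNA per cell would not show.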
